A study of Sus scrofa with 24 samples.

Results

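The small intestine was set against the liver and the spleen of the same pigs, with 12 of the 24 arrays on each side. The intestinal side consisted of 2 pieces of jejunum, one with a Peyer's patch (Peyer) and one free of patches (Jejunum). The other side consisted of Spleen and Liver. The 6 donors were crossbred pigs (Sus scrofa), numbered 68, 69, 70, 71, 73 and 75, which had been weaned on day 28, fed without restriction and killed at 10 weeks of age. None had been given an experimental treatment, and each gave 1 piece of each tissue, so n = 6 animals on each side. Within an animal the Peyer and Jejunum levels were averaged, and so were its Spleen and Liver levels. A level is the log2 signal of a probe minus the 75th percentile of its own array, so 0 is that percentile and 1 unit is a doubling. The values are of whole pieces of tissue, in which fewer cells of a type and less RNA per cell cannot be told apart.

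The inner surface of the jejunum is a single layer of epithelium, in which enterocytes with a brush border digest and absorb food while goblet, Paneth and enteroendocrine cells secrete mucus, antibacterial proteins and hormones. A Peyer's patch adds B cell follicles under a specialised epithelium. Liver and spleen share few cell types, but both filter blood through sinusoids lined with resident macrophages, the Kupffer cells of the liver and the red pulp macrophages of the spleen, which remove old red cells and recycle their iron.

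The 75th percentile signal was 876.7 to 2262 on Peyer, 680.9 to 1001 on Jejunum, 275.4 to 1098 on Spleen and 423.8 to 525.7 on Liver arrays, and between 60.4% and 75.6% of an array's probes exceeded background clearly. Peyer and Jejunum lay on slides 4, 5 and 6, and Spleen and Liver on slides 1, 2 and 3, so that slide set and side of the comparison cannot be told apart. Marker lists fitted the labels. The 22 measured brush border genes averaged 2.29 to 3.89 on Peyer and 3.66 to 4.08 on Jejunum arrays, against -3.37 to -2.52 on Spleen and -2.04 to -1.42 on Liver arrays. The 28 genes of hepatocyte plasma proteins averaged 7.41 to 7.61 on Liver and -4.65 to -1.08 on the other arrays. The 13 B cell genes averaged 2.32 to 2.59 on 5 Peyer arrays and 1.74 to 2.21 on Spleen arrays, against -2.26 to -1.38 on Jejunum and Liver arrays.

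3 arrays stood apart from others of their label. On the Peyer array of animal 71 the B cell genes averaged -0.05, below every other Peyer array, and this array had the highest level of the 6 for 195 of the 254 intestinal genes described below, with a median excess of 1.23 over the other 5. On the Spleen array of animal 73 some intestinal transcripts were raised: 36 of the 254 genes exceeded the median of the other 5 spleens by more than 2, compared with at most 6 genes on another Spleen array and at most 9 on a Liver array. On the Spleen array of animal 68 hepatocyte transcripts were higher than on the other spleens: the plasma protein genes averaged -1.08 there, against -4.38 to -2.0 on the other 5. The counts of the 254 intestinal genes and of the liver and spleen genes are also given without each of these arrays. Other counts are given with them only.

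The authors' deposited table did not hold the difference between the 2 sides. Over 42342 probes in both sources, the difference of small intestine minus liver and spleen ran from -0.37 at percentile 1 to 0.32 at percentile 99 in the authors' deposited table, and from -4.49 to 5.48 in the scanner signals. Across probes, r between the 2 sources was 0.228 for this difference, against 0.961 for the Peyer minus Jejunum and 0.965 for the Spleen minus Liver difference. FABP2 is a fatty acid binding protein of enterocytes. Its means in the authors' deposited table were 10.57 in Peyer, 11.72 in Jejunum, 11.24 in Spleen and 10.95 in Liver. In the scanner signals FABP2 was at least 2710-fold higher in both intestinal samples than in Liver. The median over probes of the SD between the 6 slide means was 0.12 in the authors' deposited table and 0.35 in the scanner signals. No source used here states how the table was centred, and all results below come from the scanner signals.

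Of 10054 named genes tested, 1202 (12%) were higher in small intestine and 1268 (12.6%) were lower. Calls come from a limma fit of the 12 within-animal averages, adjusted over all 42650 probes, and needed both an adjusted p below 0.05 and a change of 1 log2 unit or more. The median difference of all probes was -0.10, and it was 0.02 after centring each array on its median. An average over 2 organs can be moved by 1 of them. A stricter rule therefore required a log2 change of 2 or more, which is 4-fold, with an adjusted p below 0.05, in each of the 4 comparisons of an intestinal with another tissue (limma fit of the 24 arrays). It left 254 genes (2.53%) higher in both intestinal samples than in both other organs, and 69 genes (0.686%) higher in both liver and spleen than in both intestinal samples. They are called intestinal genes and liver and spleen genes below. The rule used these differences on the same arrays. The sizes, the agreement between animals and the lack of overlap given below therefore describe the genes chosen.

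**Figure D1:**
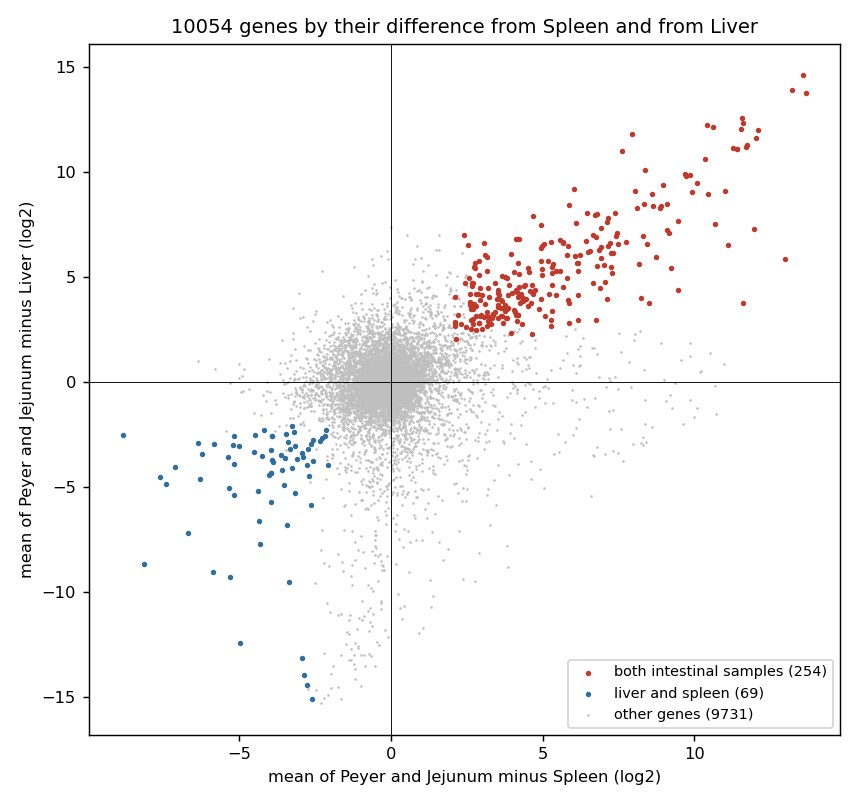
Each of 10054 genes is plotted by its intestinal mean minus Spleen (horizontal axis, log2) and minus Liver (vertical axis, log2). The 254 intestinal genes lie at the upper right and the 69 liver and spleen genes at the lower left, and genes off the diagonal differ mainly from 1 of the 2 organs.

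The 254 intestinal genes differed between the sides by 2.09 to 14.08 on the log2 scale, with a median of 4.7, and in the same direction in 6 of 6 animals. In 236 of them the lowest of the 12 intestinal arrays was above the highest of the 12 others, against 505 of all 10054 genes. Only 76 were clearly detected on every one of the 24 arrays, and 43 were above background on none of the Spleen and Liver arrays. Where a gene was above background on no array of a tissue, only a minimum fold can be given, for which the dimmest probe well above background on each array stood in for the gene. With 106 genes so bounded the median difference was 4.2, and for 31 genes the bound was under 4-fold. A tissue with only some arrays above background kept its mean signal, so a minimum fold does not bound the fold against that tissue. Differences from such a tissue rest partly on signal not clearly above background. Without the Peyer array of animal 71 the rule gave 232 genes, all among the 254, and without the Spleen array of animal 73 or that of animal 68 it gave 252, of which 251 were among them.

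Among genes measured well above background on every array, the largest separations were those of an epithelial lectin, a gut chemokine, a secretory peptide and a sugar transporter. LGALS4, a galectin of the gut epithelium, ranged from 7.02 to 8.66 with a median of 8.27 on the intestinal arrays, against -2.92 to 1.45 with a median of -1.58 on the spleen and liver arrays. The lowest intestinal array was 5.57 above the highest other array, the Spleen array of animal 73. The difference was 9.49 (SE 0.33, adjusted p = 5.6e-11), and the smallest of the 4 folds between tissue means was 369. CCL25, a chemokine that draws lymphocytes with the receptor CCR9 to the small intestine, ranged from 5.64 to 7.75 (median 7.0) in small intestine, against -3.75 to 0.37 (median -2.64) in spleen and liver, a difference of 9.22 (SE 0.20, adjusted p = 2.2e-12). Again the groups did not overlap. GUCA2A, guanylin, the peptide that acts on the epithelial guanylate cyclase receptor, lay at 4.91 to 7.59 (median 6.8) in small intestine, against -2.76 to -0.98 (median -1.92) in spleen and liver. Its widest spread was in Peyer, where the array of animal 71 stood at 7.4 against a Peyer median of 5.41. SLC5A1, the sodium and glucose cotransporter SGLT1 of the brush border, lay at 5.07 to 7.22 (median 6.72) in small intestine, against -3.29 to -1.01 (median -2.35) in spleen and liver, and all 5 of its probes were called in the same direction.

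The next genes of this order were the brush border peptidase ENPEP with a difference of 8.13, the mucus protein FCGBP with 7.49, the choline transporter family member SLC44A4 with 7.19, the galectin LGALS3 with 7.24, PRAP1 with 6.33 and TM4SF20 with 6.14. Their SEs were 0.2 to 0.24 and their adjusted p-values 8.7e-12 to 9.1e-11 (limma). None overlapped between the sides. The smallest of the 4 folds was 89.1 for ENPEP and 35.2 for TM4SF20.

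The probes below measured 4 genes that carry this contrast, LGALS4 and SLC5A1 among genes detectable on every array, and SI and FABP2 among those near or below background outside the intestine. Each is the 60-base sequence given in the scanner files, in lower case throughout because no stretch is singled out.
LGALS4: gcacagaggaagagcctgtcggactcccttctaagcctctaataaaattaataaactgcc
SLC5A1: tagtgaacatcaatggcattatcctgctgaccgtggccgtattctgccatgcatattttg
SI: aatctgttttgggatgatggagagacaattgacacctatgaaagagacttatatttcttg
FABP2: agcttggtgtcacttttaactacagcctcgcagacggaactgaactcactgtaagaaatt

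**Figure D2:**
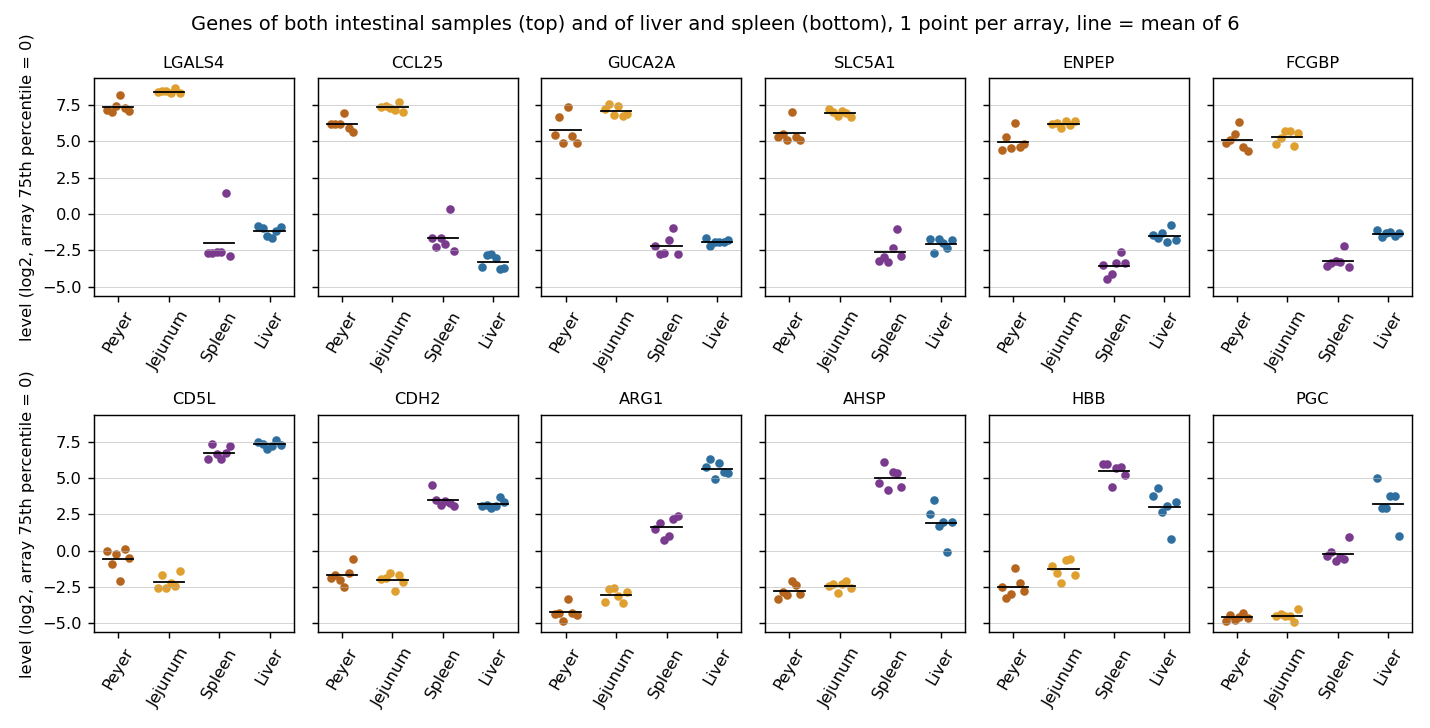
Level on each array (log2, 0 is the array's 75th percentile) of 6 intestinal genes (top) and 6 liver and spleen genes (bottom), with Peyer and Jejunum left of Spleen and Liver and a line at the mean of 6. In all 12 panels the intestinal arrays lie apart from the others, and the Spleen array of animal 73 is the high Spleen point of LGALS4.

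Brush border genes were higher in small intestine. Of 22 tested, 19 were called higher and 0 lower, against 12% and 12.6% of all genes, with a median difference of 5.6 (5.49 with bounded values), and 13 were intestinal genes by the stricter rule. SI, sucrase-isomaltase, which splits sucrose and starch products, lay at 3.88 to 5.97 (median 5.38) in small intestine, against -8.01 to -5.4 (median -7.14) in spleen and liver. It was well above background on 12 of 12 intestinal arrays, on 1 of 6 Spleen arrays and on 0 of 6 Liver arrays. Its means were at least 657-fold higher in both intestinal samples than in Liver. The difference was 12.06 (SE 0.29, adjusted p = 4.7e-12). The meprin subunits MEP1B and MEP1A, which cut peptides at the brush border, differed by 11.97 (SE 0.32) and 11.43 (SE 0.25), at least 671-fold and at least 443-fold. LCT, lactase, differed by 8.58 (SE 0.23), and VIL1, the villin that bundles microvillus actin, by 8.8 (SE 0.28). TMPRSS15, enteropeptidase, the activator of trypsinogen, differed by 5.65 (SE 0.24, at least 19.0-fold). ANPEP, aminopeptidase N, differed by 4.34 (SE 0.17) and was also present in Liver at 4.51, against 6.86 in Peyer and 7.78 in Jejunum.

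Most nutrient and mineral transporters were higher. Of 32 tested, 23 were called higher and 2 lower, against 12% and 12.6% of all genes, and 13 were intestinal genes. SLC15A1, the PEPT1 carrier of small peptides, lay at 2.95 to 4.81 (median 4.45) in small intestine, against -7.83 to -6.35 (median -6.96) in spleen and liver, where it was above background on no array. The difference was 11.23 (SE 0.18, adjusted p = 3e-13), at least 415-fold. SLC34A3, a phosphate carrier, differed by 9.87 (SE 0.16, at least 161-fold), SLC26A3, the chloride and bicarbonate exchanger, by 7.26 (SE 0.22, at least 15.5-fold), SLC1A1, a glutamate carrier, by 6.12 (SE 0.30, at least 7.85-fold), and SLC2A5, the fructose carrier GLUT5, by 4.42 (SE 0.23, at least 3.03-fold). SLC39A4, the zinc importer of enterocytes, was measured on all 24 arrays and differed by 4.1 (SE 0.18). SLC40A1, ferroportin, the iron exporter, was a liver and spleen gene, with a difference of -3.9 (SE 0.18), and was above background on none of the 12 intestinal arrays. Its spleen and liver means were at least 2.6-fold higher, and with normexp background correction the difference was -0.82 and was not called.

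The vitamin D list held 7 tested genes, of which 5 were higher and 0 lower, against 12% and 12.6% of all genes. S100G, calbindin D9k, a calcium carrier of the enterocyte cytosol, lay at 7.0 to 8.78 (median 8.0) in small intestine. On spleen and liver arrays it lay at -5.36 to 2.38 (median -4.66), and the value of 2.38 was the Spleen array of animal 73. Of its 3 probes 2 were called and the third differed by 0.01. VDR, the vitamin D receptor, differed by 4.48 (SE 0.26), at least 2.64-fold.

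For lipid absorption and chylomicron assembly 15 of 20 genes were higher and 0 lower, against 12% and 12.6% of all genes. Their median was 2.42. Of the 20, FABP2, RBP2 and APOA4 met the stricter rule, against 2.53% of all genes. FABP2 lay at 5.69 to 8.01 (median 7.47) in small intestine, against -7.92 to -0.83 (median -6.98) in spleen and liver. The difference was 13.58 (SE 0.55, adjusted p = 2.4e-10, limma), and both intestinal means were at least 2710-fold above Liver. The highest spleen value, -0.83, was that of animal 73, and the other 5 spleens lay at -7.92 to -6.39. RBP2, the retinol binding protein of enterocytes, differed by 11.51 (SE 0.38) and was above background on 1 Spleen and 2 Liver arrays. APOA4, an apolipoprotein of chylomicrons, differed by 9.41 (SE 0.68). Its mean was 7.46 in Peyer and 8.31 in Jejunum, against -5.1 in Spleen and 2.04 in Liver. In Spleen minus Liver 13 of the 20 genes were called lower, against 18.2% of all genes.

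Epithelial identity genes were also mostly higher, where 12% of all genes were higher and 12.6% lower. Of 17 transcription factors of intestinal epithelium, 15 were higher and 0 lower with a median of 3.06 (2.59 with bounded values). Of 28 adhesion, keratin and junction genes, 22 were higher and 0 lower with a median of 2.98. The stricter rule was met by 6 of the 17 and 10 of the 28, against 2.53% of all genes. In Spleen minus Liver 10 of the 17 and 19 of the 28 were called lower, against 18.2% of all genes. KLF5, a factor of crypt epithelium, differed by 7.32 (SE 0.36), SPDEF, a factor of secretory cells, by 4.16 (SE 0.21), and KLF4 by 4.01 (SE 0.21). KLF5 was above background on 3 Spleen arrays and 1 Liver array, so the size of its difference is not measured. NR1I2 was called higher with 4.64, but it averaged 1.88 in Peyer and 2.87 in Jejunum, against -7.0 in Spleen and 2.46 in Liver, so it exceeded Spleen alone. KRT20, a keratin of differentiated gut epithelium, differed by 11.82 (SE 0.94). It lay at 4.86 to 5.99 in small intestine, against -8.17 to -0.36 in spleen and liver. KRT20 was above background on 1 Spleen and 1 Liver array, so the size of this difference is not measured. The 2 raised values outside the intestine were both of animal 73, with -1.74 in Spleen and -0.36 in Liver. EPCAM, an adhesion molecule of epithelia, differed by 9.11 (SE 0.36), and CLDN7, a tight junction claudin, by 6.9 (SE 0.18).

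Secretory cell products were mostly higher, where 12% of all genes were higher and 12.6% lower. Of 16 goblet and Paneth cell genes 10 were higher and 1 lower, with a median of 5.56 (5.16 with bounded values), and 9 were intestinal genes. REG4, a lectin of secretory cells, lay at 4.27 to 6.48 (median 5.19) in small intestine, against -7.81 to -2.01 (median -6.92) in spleen and liver. Both intestinal means of REG4 were at least 1110-fold above Liver. ITLN2, an intelectin, was at least 1040-fold higher in both intestinal samples than in Liver. CLCA1, a goblet cell mucus protein, differed by 11.2 (SE 0.43), SPINK4 by 7.62 (SE 0.27) and LYZ, lysozyme, by 6.2 (SE 0.28). CLCA1 was above background on 2 Spleen arrays and 1 Liver array. Of 16 enteroendocrine genes 12 were higher and 1 lower. With bounded values their median difference was 1.74, and it was 2.56 as measured. SST, somatostatin, which restrains other gut hormones, differed by 10.49 (SE 0.33, at least 271-fold), GCG, the precursor of the glucagon-like peptides, by 9.17 (SE 0.28, at least 72.7-fold), NTS, neurotensin, by 6.15 (SE 0.39, at least 13.3-fold), and CCK, cholecystokinin, by 4.79 (SE 0.28). GHRL, ghrelin, differed by 2.54 (SE 0.26).

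Against 12% higher and 12.6% lower of all genes, the guanylin and chloride secretion list had 10 higher and 2 lower of 13 genes. Its ligands GUCA2A and GUCA2B differed by 8.49 (SE 0.28) and 5.04 (SE 0.31), the receptor GUCY2C by 4.35 (SE 0.23), and the chloride channel CFTR by 3.53 (SE 0.29, at least 3.18-fold). The potassium channel KCNN4 differed by 7.47 (SE 0.57) on its brightest probe, whereas the 1 of its 3 probes that was above background on all 24 arrays differed by 0.49. CA1, a carbonic anhydrase of red cells, was a liver and spleen gene with -3.24 (SE 0.17). Of 11 crypt stem cell and Wnt genes 4 were higher and 1 lower, with a median of 0.12. The factors MYB and ASCL2 met the stricter rule with 4.52 (SE 0.18) and 4.26 (SE 0.25).

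Mucosal defence genes were mixed, with 8 higher and 3 lower of 16, against 12% and 12.6% of all genes. DMBT1, a scavenger receptor protein of mucus, differed by 9.62 (SE 0.55), BPI, a protein that binds bacterial lipopolysaccharide, by 7.38 (SE 0.41), and PGLYRP4, a peptidoglycan recognition protein, by 5.95 (SE 0.31, at least 18.9-fold). DMBT1 was above background on 1 Spleen array, and BPI on 3 Spleen arrays and 1 Liver array, so the sizes of these differences are not measured. PIGR, which carries IgA across epithelium, averaged 6.91 in Peyer and 7.7 in Jejunum, against -2.16 in Spleen and 2.93 in Liver, a difference of 6.92 (SE 0.25), so it was above both organs without being low in Liver. For IgA transport and gut homing 6 of 10 genes were higher and 0 lower. The chemokine CCL28, which draws IgA plasma cells, differed by 4.1 (SE 0.50).

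Of the 20 cytotoxic and intraepithelial lymphocyte genes 7 were higher and 3 lower. Over all genes, for this and the B cell list alike, 12% were higher and 12.6% lower. GZMA, granzyme A, met the stricter rule with 5.5 (SE 0.47) and GZMB, granzyme B, did not, with 3.1 (SE 0.44) and a smallest difference of 1.66. EOMES, a factor of cytotoxic lymphocytes, was lower, with -3.0 (SE 0.18). The 13 B cell genes gave 2 higher and 2 lower with a median of 0.03, since Peyer and Spleen were high and Jejunum and Liver low. VPREB1 was called lower with -2.3 (SE 0.27), although it averaged 1.05 in Peyer and -4.45 in Jejunum, against 3.19 in Spleen and -1.99 in Liver.

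The lists in this paragraph, of other gut wall compartments and of drug metabolism, held 0 genes that met the stricter rule. Over all genes 2.53% met it as intestinal genes, so 0 is near that share in lists of this size. For every list here the shares over all genes were 12% higher and 12.6% lower. Of 17 smooth muscle genes 8 were higher and 1 lower, and 0 met the stricter rule. ACTG2, the actin of visceral muscle, averaged 6.08 in Peyer and 7.64 in Jejunum, against 6.32 in Spleen and -0.12 in Liver, so Jejunum exceeded both organs (by 1.32 over Spleen, adjusted p = 0.046, limma) and Peyer exceeded Liver alone. Of 12 genes of enteric neurons, glia and interstitial cells 2 were higher and 2 lower, with NCAM1 at 3.61 (SE 0.22, at least 3.19-fold) and UCHL1 at 2.43 (SE 0.41). Of 18 fibroblast and matrix genes 3 were higher and 1 lower, with DCN, decorin, at 2.09 (SE 0.21). Of 6 mast cell and eosinophil genes 1 was higher and 2 lower. Of 14 genes of drug and xenobiotic metabolism 10 were higher and 1 lower, and 0 met the stricter rule. GSTA1, a glutathione transferase, averaged 5.25 in Peyer and 6.11 in Jejunum, against -4.32 in Spleen and 7.38 in Liver.

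Over all genes 12% were higher and 12.6% lower, which applies to each list here. Of 21 replication and mitosis genes 11 were higher and 0 lower, with a median of 1.02 and CDK1 at 1.52 (SE 0.32). Of 11 adipose genes 7 were higher and 1 lower, and RETN, resistin, met the stricter rule with 3.55 (SE 0.29). Pancreatic enzyme genes gave 2 higher and 0 lower of 7, led by GP2, which averaged 2.59 in Peyer and -4.06 in Jejunum, against -2.1 in Spleen and -3.79 in Liver, and is also a receptor of the M cells that cover the patch. Of 25 housekeeping genes 1 was higher and 2 lower, with a median of -0.15. HPRT1, a purine salvage enzyme often used as a reference gene, was lower, with -2.57 (SE 0.14). Of 51 ribosomal protein genes 1 was higher and 0 lower, with a median of -0.18.

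**Figure D3:**
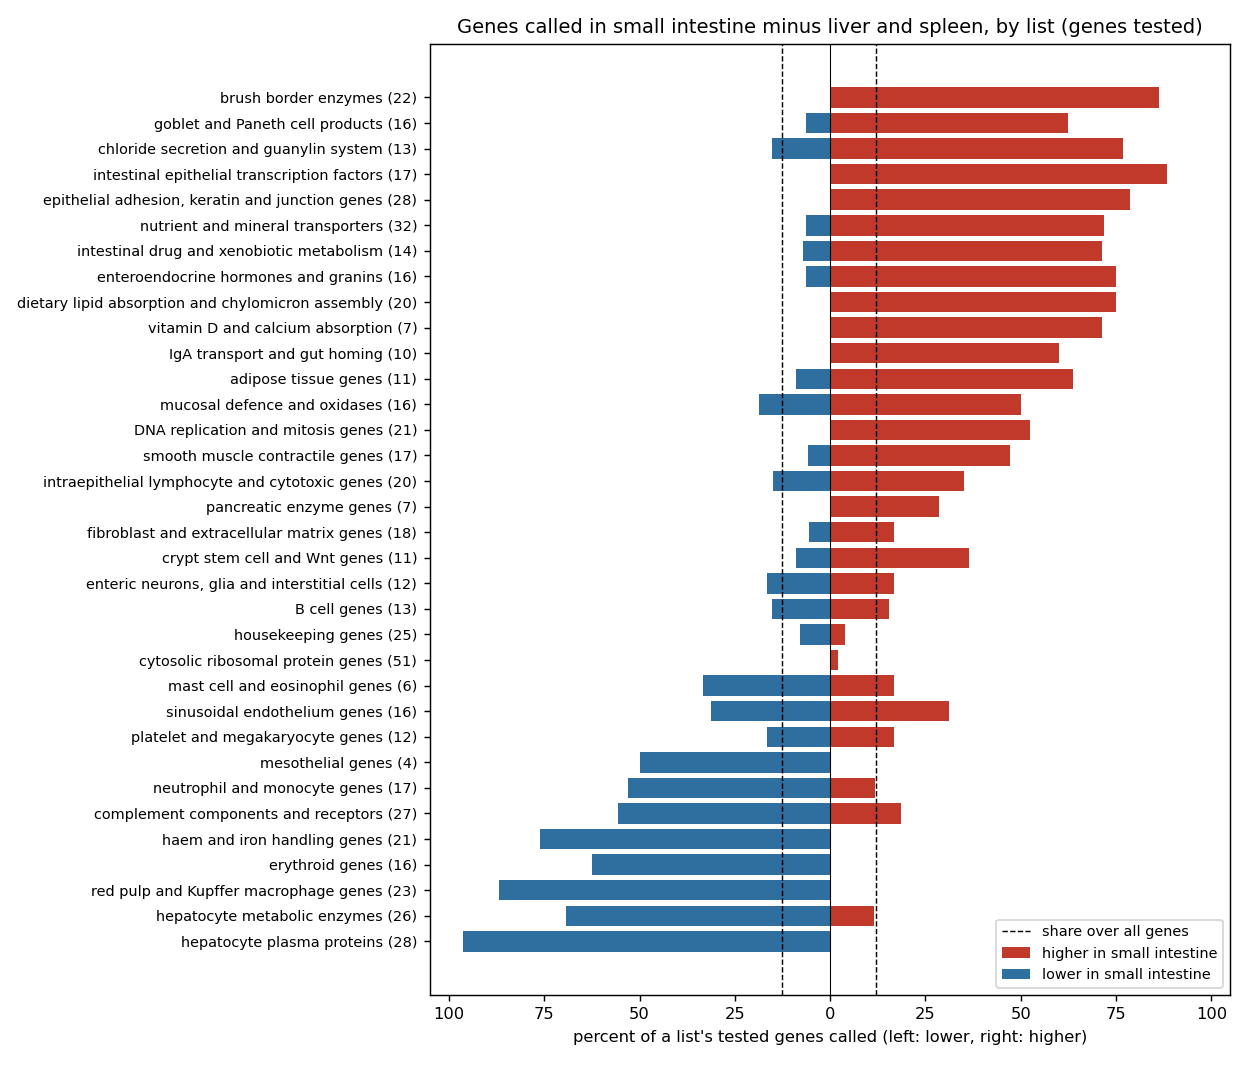
Percent of the tested genes of each list that were called higher (right) or lower (left) in small intestine than in liver and spleen, with dashed lines at the shares over all genes, 12% and 12.6%. Brush border genes (19 of 22) and epithelial transcription factors (15 of 17) stand far to the right, and hepatocyte plasma proteins (27 of 28) far to the left.

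The 69 liver and spleen genes differed by -8.86 to -2.23, with a median of -4.03, and 68 did so in the same direction in 6 of 6 animals. In 55 of them all 12 intestinal arrays were below all 12 others, against 372 of all 10054 genes. Of the 69, 38 were above background on all 24 arrays, and for 7 the bound was under 4-fold. The rule gave 65 genes without the Peyer array of animal 71, 63 (all among the 69) without the Spleen array of animal 68, and 72, of which 67 were among the 69, without the Spleen array of animal 73. They were led by CD5L, a protein secreted by tissue macrophages. CD5L lay at -2.59 to 0.1 (median -1.52) in small intestine, against 6.29 to 7.66 (median 7.21) in spleen and liver. The groups lay 6.19 apart, the difference was -8.41 (SE 0.18, adjusted p = 2.2e-12), and all 5 probes were called in the same direction. CDH2, N-cadherin, lay at -2.74 to -0.57 (median -1.88) in small intestine, against 2.96 to 4.5 (median 3.24) in spleen and liver, with a difference of -5.19 (SE 0.19). ARG1, the arginase of the urea cycle, lay at -4.84 to -2.58 in small intestine, against 0.77 to 2.41 in Spleen and 4.94 to 6.29 in Liver, so that these 3 ranges did not overlap. The probes of CD5L and ARG1 are shown because CD5L leads the order of these genes and ARG1 shows 3 separate levels.
CD5L: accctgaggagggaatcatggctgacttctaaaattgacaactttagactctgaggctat
ARG1: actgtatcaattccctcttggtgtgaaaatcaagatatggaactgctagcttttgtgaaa

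Macrophage genes were lower in small intestine. Of 23 red pulp and Kupffer cell genes 0 were higher and 20 lower, against 12% and 12.6% of all genes. Their median was -2.11, and 8 were liver and spleen genes. CLEC4F, a lectin of Kupffer cells in mice, lay at -8.58 to -4.82 in small intestine, against -2.03 to 0.39 in spleen and liver. It was above background on 1 of 12 intestinal and on 12 of 12 other arrays, and its difference was -6.94 (SE 0.33), at least 39.5-fold. CD163, the receptor for haemoglobin bound to haptoglobin, lay at -0.31 to 2.4 (median 0.45) in small intestine, against 3.74 to 5.34 (median 4.56) in spleen and liver, with a difference of -3.87 (SE 0.26). SIGLEC1 differed by -3.84 (SE 0.27) and the scavenger receptor MSR1 by -3.25 (SE 0.20). CX3CR1, the fractalkine receptor of monocytes and macrophages, differed by -4.14 (SE 0.22).

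Iron and red cell genes were lower as well. Of 21 haem and iron genes 0 were higher and 16 lower (median -1.73), and of 16 erythroid genes 0 were higher and 10 lower (median -1.75). Over all genes 12% were higher and 12.6% lower. The stricter rule was met by 4 of the 21 and 6 of the 16. In Spleen minus Liver 12 of the 21 were called lower, against 18.2% of all genes. HMOX1, the haem oxygenase that opens the haem ring, averaged 2.13 in Peyer and 2.41 in Jejunum, against 6.74 in Spleen and 4.79 in Liver, a difference of -3.49 (SE 0.26). BLVRB, a biliverdin reductase, differed by -3.18 (SE 0.18), and CP, the copper oxidase ceruloplasmin, by -8.71 (SE 0.38). CP averaged -5.51 in Peyer and -4.88 in Jejunum, against -0.22 in Spleen and 7.26 in Liver. HBB, the beta chain of haemoglobin, lay at -3.28 to -0.57 (median -1.95) in small intestine, against 4.39 to 5.99 in Spleen and 0.81 to 4.31 in Liver, a difference of -6.14 (SE 0.36). AHSP, which stabilises free alpha chains, differed by -6.06 (SE 0.30). The labels state that the animals were bled at slaughter, and blood left in each tissue was not measured.

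Of 17 neutrophil and monocyte genes 2 were higher and 9 lower, with S100A8, a subunit of calprotectin, at -5.46 (SE 0.27), S100A12 at -4.54 (SE 0.33) and the lipopolysaccharide co-receptor CD14 at -5.14 (SE 0.52). CD14 was 7.33 on the Spleen array of animal 70, against 0.18 to 0.95 on the other Spleen arrays. Its Spleen median was 0.46, against -0.88 in Peyer, a gap below the limit of 2. The smallest comparison of CD14, Peyer minus Spleen, was -2.68 with that array included. Of 12 platelet and megakaryocyte genes 2 were higher and 2 lower, and NFE2 met the stricter rule with -3.87 (SE 0.21). VWF was higher, with 1.55 (SE 0.14). For every list here the shares over all genes were 12% higher and 12.6% lower. F13A1 was called lower with -1.27 (SE 0.45, adjusted p = 0.025) and was no longer called without animal 69 or 70 or without the Spleen array of animal 68 or 73. Of 16 sinusoidal endothelium genes 5 were higher and 5 lower. CLEC4G, a lectin of sinusoidal endothelium, averaged 0.15 in Peyer and -6.43 in Jejunum, against 2.73 in Spleen and 5.93 in Liver, and the Peyer and Spleen arrays overlapped. FCN2 of the same list was higher, with 4.11 (SE 0.50). It averaged 6.78 in Peyer and 7.27 in Jejunum, against 0.39 in Spleen and 5.44 in Liver. Of 4 mesothelial genes 0 were higher and 2 lower, and WT1 met the stricter rule with a measured difference of -5.69 (SE 0.31). It was above background on 0 of 6 Jejunum, 1 of 6 Peyer and 2 of 6 Liver arrays, the sides overlapped, and its fold is bounded only at 1.8 or more.

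Liver genes were mostly lower on average, and fewer of them met the stricter rule. Over all genes 12% were called higher and 12.6% lower, and 0.686% met the stricter rule as liver and spleen genes. Of 28 hepatocyte plasma protein genes 27 were lower, and 4 were liver and spleen genes. Without the Spleen array of animal 68 only 1 of these 4, ITIH3, met the rule: the smallest difference became -1.46 for ALB, -1.56 for AMBP and -1.51 for ORM1. Of 26 hepatocyte enzyme genes 18 were lower and 3 higher, and 4 met the rule, or 3 without that array. Of 27 complement genes 15 were lower and 5 higher, and 0 met it, which is near the share over all genes. ALB, albumin, averaged -4.15 in Peyer and -2.32 in Jejunum, against -0.31 in Spleen and 9.91 in Liver. It was just inside the threshold, with -2.01 in its smallest comparison, and its spleen arrays ran from -2.73 to 2.43 and overlapped those of Jejunum. TTR, transthyretin, was just outside with -1.98. PGC, a gastric pepsinogen, lay at -4.94 to -4.01 in small intestine, against -0.73 to 0.93 in Spleen and 1.0 to 5.02 in Liver, a difference of -6.03 (SE 0.19). AGTR1, the angiotensin II receptor, differed by -4.84 (SE 0.21), and SDS, serine dehydratase, by -4.49 (SE 0.39) with more signal in Spleen, 1.94, than in Liver, 0.16.

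On the intestinal side the 2 genes just inside the limit were HNF4G and KIAA1324, both with 2.0 in the smallest comparison, and those just outside were LHFPL2 with 1.99 and ST6GALNAC5 with 1.95. On the other side AFMID stood just inside with -2.01 and SPP2 just outside with -1.97.

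Peyer and Jejunum share slides and can be compared within them. The counts and values below include the Peyer array of animal 71 and are not given without it. The intestinal genes were mostly lower in Peyer. Of the 254, 2 were called higher (0.8%) and 91 lower (35.8%) in Peyer minus Jejunum, against 6.18% higher and 7.22% lower of all genes, and 161 were not called. Their median was -0.96 and 235 were below 0, whereas the other 9731 genes had a median of -0.1. Of the 13 B cell genes 11 were higher in Peyer, with a median of 3.68, and of the 17 smooth muscle genes 9 were lower, with a median of -1.06. The part of either in the lower levels of the intestinal genes was not tested. The extremes were VDR with -2.21 (adjusted p = 6e-05), SLC6A19, a neutral amino acid carrier, with -2.17 (3.4e-05), CA4, a membrane carbonic anhydrase, with -2.11 (0.00042) and KCNIP4 with -2.1 (0.027). FAM162B and RPRM were the 2 called higher, with 2.12 (0.00021) and 1.23 (0.015), followed by ITGB6 with 0.87 and NOS2 with 0.83, which were not called. Among secretory genes REG4 differed by 0.03, SPINK4 by 0.06 and FCGBP by -0.17 (adjusted p 0.97, 0.92 and 0.64). Among liver and spleen genes 8 were higher (11.6%) and 4 lower (5.8%) in Peyer, and CLEC4G had the largest difference, 6.57 (SE 0.64, adjusted p = 3.8e-07). In the Peyer array of animal 71 CLEC4G was -3.47, against a Peyer median of 0.72.

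**Figure D4:**
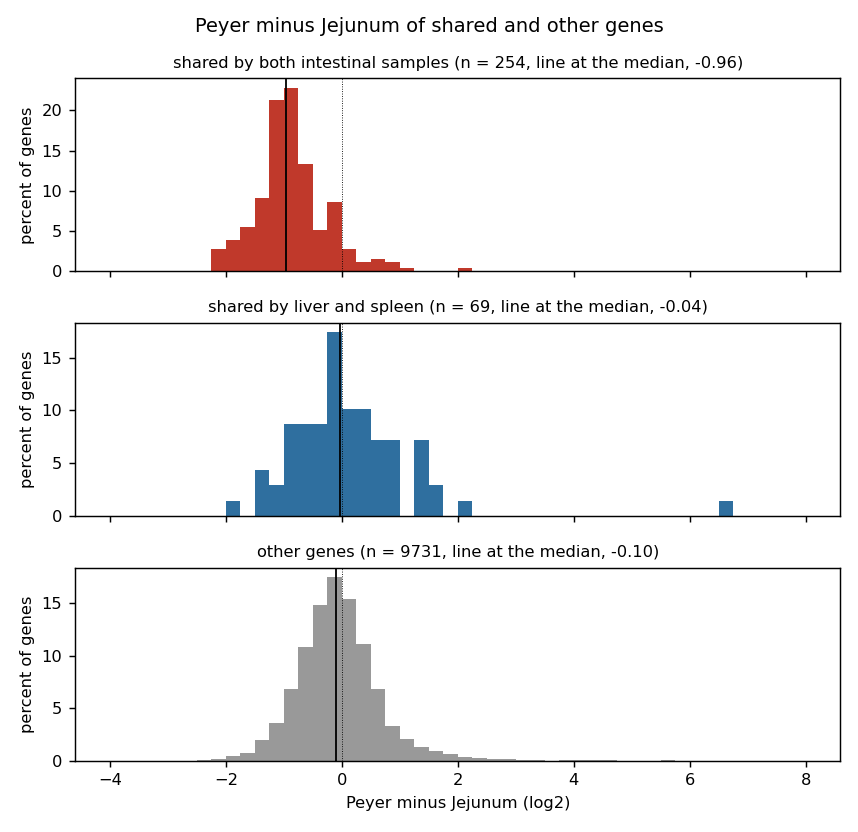
Percent of genes by Peyer minus Jejunum (log2) for the 254 intestinal genes, the 69 liver and spleen genes and the 9731 others, with a line at each median. The intestinal genes centre at -0.96 and the other 2 sets at -0.04 and -0.1.

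Spleen and Liver also share slides. Among intestinal genes 52 were higher (20.5%) and 47 lower (18.5%) in Spleen minus Liver, and among the liver and spleen genes 19 were higher (27.5%) and 17 lower (24.6%), against 21.1% higher and 18.2% lower of all genes. Liver and spleen genes with a large Spleen excess were WT1 with 6.28 and KAZALD1 with 3.41, together with the erythroid gene AHSP with 3.08. Those with a large Liver excess were AMBP with -12.54, ORM1 with -11.68 and ALB with -10.22. Their Spleen means were -4.19, -2.78 and -0.31, so they were not high in Spleen but only above the intestinal means.

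The Spleen array of animal 73 held 36 raised intestinal genes (14.2% of 254). Of these, 20 were above background on at most 1 Spleen array and 6 on all 6, so the size of most excesses is not measured. SPINK1, a trypsin inhibitor named here after its values were seen, stood at 1.98 on this array, against -7.99 to -6.52 on the others. APOA4 stood at 1.56 (others -7.96 to -4.62), DMBT1 at 0.27 (-7.95 to -6.49) and S100G at 2.38 (-5.36 to -4.51). All 36 lay below the intestine of the same animal, by 1.89 to 10.96 with a median of 6.51. No intestinal gene was more than 2 below the other spleens. SI reached -5.4 on this array, against -8.01 to -6.53 on the others.

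**Figure D5:**
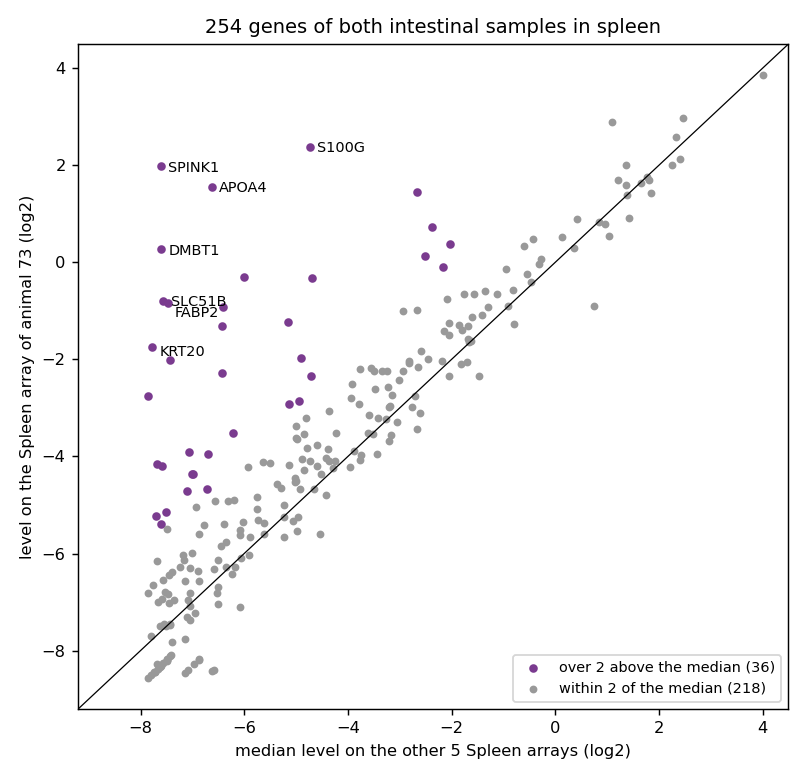
Level of the 254 intestinal genes on the Spleen array of animal 73 (vertical axis, log2) against the median of the other 5 Spleen arrays (horizontal axis, log2), with the line of equality. The 36 genes more than 2 above the median are marked. The 7 with the largest excess over that median are named, from SPINK1 with 9.59 to KRT20 with 6.04.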

How the data were processed

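Each sample was hybridised to its own one-colour Agilent array, labelled with Cy3 per the labels. The deposited scanner files hold intensity values, background-subtracted by Agilent Feature Extraction 10.10.1.1 per the file headers and not normalized between arrays. The authors' deposited table holds log2 values, made with limma per the submitters' processing notes; its 24 columns share the same sorted values and a median of 8.24.

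Of 61625 spots 1319 were controls. Log2 signals were centred on each array's 75th percentile. Of 60305 probes, 42650 were kept, being well above background on all 6 arrays of a tissue with no outlier flag (136 probes had one); 50.9% of them had 1 gene name, from the file's symbols, accessions or gene numbers and the RefSeq gene table. Of 10054 genes 5243 had several probes, and the one with the highest mean was used. Among intestinal genes 132 had several probes, of which 98 had all probes meeting the rule and 1 had a probe called in the opposite direction. C15orf48 and C1H15orf48 may be names of 1 gene and were counted as 2.

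Under R 4.3.3, limma 3.58.1 (functions lmFit, eBayes) compared sides on 12 within-animal averages, leaving 10 residual degrees of freedom, and tissues on 24 arrays with tissue as the only term, leaving 20. The Benjamini-Hochberg adjustment ran over all probes of a comparison. Replicate numbers are animal numbers and so pair the samples. Deviations of 36 same-animal array pairs from the tissue means correlated at a mean r of 0.17, lowest -0.021, against -0.034 for 180 other pairs, and the 2 sides of an animal at 0.13 to 0.33. The fits were tested on simulated data.

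Members and lists were chosen with earlier results of these data known. Named genes are the 10 most separated of each shared set among those above background on all arrays, shared members and the 3 largest differences of each of 34 lists, extremes of Peyer minus Jejunum and Spleen minus Liver, and those nearest the threshold. The alternatives were other centrings, background correction, filters, thresholds, blocks, left-out animals and the authors' values. Values of a few named genes are not reported here.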

Additional observations from a re-analysis of the deposited data

Results flagged for a closer look

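In 322 groups of 6 values, 36 had 1 value far from the other 5 by Dixon's gap, where chance gives about 1 in 20. The array or animal concerned is named with its value, and the range of the other 5 follows.

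The Peyer array of animal 71 was high for LGALS4 with 8.23 (7.02 to 7.47), SLC5A1 with 7.01 (5.07 to 5.53), PRAP1 with 7.52 (5.52 to 6.19) and ARG1 with -3.29 (-4.84 to -4.29). Its list means were high for brush border genes with 3.89 (2.29 to 2.88), epithelial transcription factors with 0.38 (-1.17 to -0.71), adhesion genes with 2.21 (1.05 to 1.33) and enteroendocrine genes with -0.49 (-1.54 to -1.24). The same held for chloride secretion with 0.62 (-0.76 to -0.3), xenobiotic metabolism with 4.47 (2.58 to 3.25) and hepatocyte enzymes with -2.5 (-3.5 to -3.24). Its means were low for B cell genes with -0.05 (2.32 to 2.59) and for replication with -0.18 (1.31 to 1.48). The side difference of SPIB, a B cell and M cell factor, was low in animal 71 with 1.42 (2.28 to 2.7).

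The Spleen array of animal 73 was high for LGALS4 with 1.45 (-2.92 to -2.62), CCL25 with 0.37 (-2.51 to -1.62), FCGBP with -2.23 (-3.65 to -3.22) and the brush border mean with -2.52 (-3.37 to -3.08), and low for CX3CR1 with -0.13 (1.29 to 2.12). Its Liver array had a brush border mean of -1.42 (-2.04 to -1.9), and its Jejunum array had CX3CR1 at -3.77 (-2.69 to -2.13). The side difference of animal 73 was the lowest for SI with 10.28 (11.99 to 12.91), MEP1B with 10.08 (11.85 to 12.9), S100G with 8.99 (12.21 to 13.06) and FABP2 with 10.17 (13.92 to 14.64). It was also lowest for KRT20 with 6.4 (12.6 to 13.08), EPCAM with 7.16 (9.1 to 10.25), REG4 with 8.86 (12 to 12.88) and ITLN2 with 9.06 (11.54 to 12.06).

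Other single values were CDH2 in Spleen of animal 68 with 4.5 (3.05 to 3.47), and the Spleen means of animal 70 for smooth muscle with 2.93 (3.47 to 3.72) and erythroid genes with 0.1 (0.68 to 1.02). Side differences stood apart for MBL2 in animal 68 with -3.24 (-7.36 to -6.05), CD14 in animal 70 with -7.92 (-5.11 to -4.23), TNC in animal 70 with 1.27 (1.93 to 2.25) and ETV1 in animal 75 with -1.26 (-2.46 to -2.06).

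Peyer and Jejunum differed from each other, by the limma call rule of the report, in 27 named genes of the shared sets. In Peyer minus Jejunum the lower genes were CCL25 with -1.15, GUCA2A with -1.32, SLC5A1 with -1.4, ENPEP with -1.24, PRAP1 with -1.05, SI with -1.28, MEP1B with -1.55, MEP1A with -1.13 and SLC34A3 with -1.21. Also lower were VDR with -2.21, SST with -1.08, GCG with -1.86, NTS with -1.91, RETN with -1.35, SLC6A19 with -2.17, CA4 with -2.11, KCNIP4 with -2.1, HNF4G with -1.86, ARG1 with -1.18, HBB with -1.21 and ALB with -1.84. The higher genes were CD5L with 1.56, CLEC4G with 6.57, S100A8 with 1.39, S100A12 with 1.32, RPRM with 1.23 and FAM162B with 2.12.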

How the results depend on the processing

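Against 2470 genes called in small intestine minus liver and spleen, 254 intestinal and 69 liver and spleen genes, leaving out 1 animal gave 2439 to 2546, 225 to 259 and 62 to 73. The replicate block gave 2480, 254 and 69 and changed no call of a named gene, and slide as a random block gave 1203 higher and 1269 lower. Median centring moved the split to 1379 higher and 1067 lower. Normexp with quantile normalization gave 168 and 32 shared genes. Keeping only probes above background on all 24 arrays gave 1610 called, 76 and 38. A limit of 1 in place of 2 gave 446 and 259, and a limit of 3 gave 159 and 29. Leaving out the Spleen array of animal 73 gave 252 and 72, and leaving out that of animal 68 gave 252 and 63, both chosen after seeing the data. Of 126 named genes normexp left 7 uncalled, among them CALB1 at 0.56, and of 63 measured on all arrays 3 were uncalled, S100G at 0.01, NR1I2 at 0.97 and KCNN4 at 0.49.

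The authors' deposited table gave 0 called and 0 in each shared set with limma, where 855 genes had an unadjusted p below 0.05, and the cause was not tested. The sign was opposite for 49 named genes in the authors' deposited table, none of them called. The difference was 0.25 for FN1, 0.24 for WT1, 0.23 for TFRC, 0.17 for CD5L, 0.15 for HPRT1, 0.12 for CD163, 0.1 for ARG1, CLEC4G, HP and CD14, 0.08 for CCR3 and GATA2, 0.06 for RPS19, 0.04 for CDH2, HBB, AGTR1 and AMY2, 0.03 for ETV1, CP and NFE2, 0.02 for AHSP and 0 for PGC, TNC and KAZALD1. It was -0.29 for FAM162B, -0.24 for GP2, -0.19 for ITGB6, -0.18 for KCNIP4, -0.15 for RPRM, -0.14 for ST6GALNAC5, -0.13 for CALB1, -0.09 for CCL28, -0.08 for KRT5, -0.07 for HDC and CLPS, -0.05 for RPS7 and KIAA1324, -0.04 for KLF5 and KIF23, -0.03 for ASCL2, -0.02 for VDR, BPI, NCAM1, RETN and HNF4G, and -0.01 for NTS, MYB, KCNN4 and CA12. Signal near background limits the folds of 106 intestinal genes to lower bounds, and 76 of the 254 were above background on all 24 arrays. Folds of genes in neither group rest partly on signal not clearly above background.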

Other observations

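The genes given here lay outside the lists and were chosen after their values were seen, all met the 4-fold rule in limma, and no count of a gene group stands behind them, so they are single values. SPINK1, a trypsin inhibitor, had the largest difference of the intestinal genes. It averaged 7.18 in Peyer and 8.28 in Jejunum, against -5.85 in Spleen and -6.86 in Liver. In both intestinal samples it was at least 4530-fold higher than in Liver. It was above background on 1 Spleen array, so its fold over Spleen is not bounded. PI3, an elastase inhibitor, was at least 377-fold higher. The collagenase MMP1 averaged 2.93 in Peyer and 3.58 in Jejunum, against -6.83 in Spleen and -6.23 in Liver (9.79, SE 0.61). It was above background on 1 Spleen array. GIF and TCN1, which bind cobalamin, differed by 6.38 (SE 0.37, at least 16.5-fold) and 6.36 (SE 0.46), and the chemokine CXCL8 by 3.63 (SE 0.27). TAC3, neurokinin B, averaged 1.56 in Peyer and 1.68 in Jejunum, against -2.06 in Spleen and -3.43 in Liver.

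Among liver and spleen genes IGF2, a growth factor, averaged 1.39 in Peyer and 1.88 in Jejunum, against 4.33 in Spleen and 6.13 in Liver, and the matrix proteoglycan BGN and the receptor NGFR differed by -3.6 (SE 0.21) and -4.23 (SE 0.29). Of 20954 tested probes with no gene name, 427 (2.04%) met the rule for small intestine and 143 (0.682%) that for liver and spleen.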
